A study of Mus musculus with 2 samples.

Results

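The genes described here build the cornified envelope of normal skin. They were 33 listed genes of terminal keratinocyte differentiation, taken as every probe outside the controls that carried the gene's symbol: the Lce1 family, filaggrin-type proteins, loricrin, involucrin and other precursors, the small proline-rich genes Sprr1a, Sprr1b, Sprr3 and Sprr4, transglutaminases and the scaffold proteins. Of the 33, 32 had at least 1 probe, with 38 probes in all, among 24333 named genes on the array. The rule works on gene names. Flg was the gene without a probe under its own symbol, and 3 probes that carry an Ensembl transcript name but describe profilaggrin are given apart. The Sprr2 and Lce3 genes were left out by the rule.

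The study compared newborn skin of Pla2g4e-/- mice with that of Pla2g4e+/+ mice, both C57BL/6N on postnatal day 0, and the series' title places this cytosolic phospholipase A2 in the context of psoriatic inflammation. There were 2 Agilent 1-colour arrays, 1 per genotype, and each held equal amounts of skin RNA from 5 animals. The sexes of the pooled animals are not given in the labels. No test was possible with 1 array per group, and each difference below is log2 signal, knockout minus wild type, after each array was scaled to its own 75th percentile. The error beside it is that of the scanner software for the spots and leaves out the animals.

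A cornified envelope replaces the plasma membrane of a keratinocyte as it dies at the skin surface. Involucrin, envoplakin and periplakin form an early scaffold under the membrane, and loricrin, Lce and small proline-rich proteins are then added as the bulk. Transglutaminases, enzymes that calcium activates, join these proteins by covalent bonds. Filaggrin and its relatives bundle keratin filaments in the same cells and later yield the moisturising amino acids of the horny layer. Most of these genes lie together in the epidermal differentiation complex, and newborn mice depend on this barrier from birth.

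Facts of the arrays bear on all values. The median signal outside the controls was 249 in wild type and 241 in knockout, 78.0% and 80.8% of probes were well above background, and no spot was saturated (0 on either array). The targeted gene Pla2g4e read 662 and 320, which left 51.4% of the wild-type level after scaling, and its dim second probe 10.6 and 11.7 (118%); which part was deleted is not stated in the labels, so this probe may check nothing. The Y-linked Ddx3y read 2893 and 2.36, below background in the knockout pool, and Xist was 3.87-fold higher there. The pools therefore differed in sex as well as in genotype, and both arrays lay in different positions of 1 slide; these cannot be told apart from genotype.

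The labelled tissue was borne out by its defining markers. The basal keratins Krt5 (247197 in wild type, 224586 in knockout) and Krt14 (92691 and 87086) and the suprabasal keratins Krt1 (246415 and 249788) and Krt10 (232907 and 241231) were all well above background. Scaled differences were -0.05 for Krt5, 0.0013 for Krt14, 0.11 for Krt1 and 0.14 for Krt10. Sprr3, the small proline-rich gene typical of oral and oesophageal lining, read 3.20 and 3.02 and was not well above background on either array. Among 4 keratins listed as markers of oral lining, Krt4 (15.9 and 24.3) and Krt76 (9.68 and 38.9) did not pass on both arrays. Krt13, a keratin of the same lining, was measured at 16089.6 and 14685.3 (-0.04 log2), and Krt36 at 1838 and 763 (-1.18). With 2 of the 4 listed oral keratins measured, that list does not tell the tissues apart. In RNA of whole skin, fewer cells of a type and less RNA per cell cannot be told apart.

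Promoters are shown for the 4 members with a difference of at least 1.5-fold, Rptn, Sprr1b, Ivl and Hrnr, and for Lor, the envelope's main protein, whose signal was nearly equal in the pools. Each is the 250 bases before the annotated start, 5′ to 3′ on the gene's strand, from RefSeq on GRCm38.p6. All lie on chromosome 3, at 93393449 to 93393698 on the plus strand for Rptn, 92438780 to 92439029 on the minus strand for Sprr1b, 92573736 to 92573985 on the minus strand for Ivl, 93319499 to 93319748 on the plus strand for Hrnr and 92083143 to 92083392 on the minus strand for Lor. Capitals mark TATAAA, the TATA box, and TGANTCA, the site that AP-1 factors (Jun and Fos proteins) bind.
Rptn: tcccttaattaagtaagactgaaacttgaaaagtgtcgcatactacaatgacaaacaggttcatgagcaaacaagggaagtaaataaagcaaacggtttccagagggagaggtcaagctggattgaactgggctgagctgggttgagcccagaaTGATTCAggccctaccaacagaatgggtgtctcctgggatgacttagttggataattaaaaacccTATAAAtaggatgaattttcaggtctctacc
Sprr1b: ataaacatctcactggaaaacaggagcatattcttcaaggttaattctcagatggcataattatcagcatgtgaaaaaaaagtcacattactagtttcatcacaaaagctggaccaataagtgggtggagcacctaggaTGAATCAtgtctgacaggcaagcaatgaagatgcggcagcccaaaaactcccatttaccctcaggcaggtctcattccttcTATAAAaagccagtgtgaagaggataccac
Ivl: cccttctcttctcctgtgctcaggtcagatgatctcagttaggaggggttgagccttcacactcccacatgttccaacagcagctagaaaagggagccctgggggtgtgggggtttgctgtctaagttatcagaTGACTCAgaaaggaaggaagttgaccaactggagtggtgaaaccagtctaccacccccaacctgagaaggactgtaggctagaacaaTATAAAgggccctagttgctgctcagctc
Hrnr: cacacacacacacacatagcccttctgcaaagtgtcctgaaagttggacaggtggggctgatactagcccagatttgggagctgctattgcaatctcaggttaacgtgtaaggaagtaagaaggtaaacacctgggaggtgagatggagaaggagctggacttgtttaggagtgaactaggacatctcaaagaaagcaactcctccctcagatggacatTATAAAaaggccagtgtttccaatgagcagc
Lor: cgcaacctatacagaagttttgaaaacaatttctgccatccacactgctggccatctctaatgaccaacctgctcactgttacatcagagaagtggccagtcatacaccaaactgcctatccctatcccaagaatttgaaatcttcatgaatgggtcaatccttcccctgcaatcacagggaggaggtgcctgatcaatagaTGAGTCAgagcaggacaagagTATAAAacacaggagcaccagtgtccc
All 5 hold TATAAA, which begins 31 bases before the start in Rptn and Hrnr, 30 in Sprr1b, 29 in Ivl and 27 in Lor. TGANTCA is in Rptn at 96 bases before the start, in Sprr1b at 111, in Ivl at 116 and in Lor at 48, and these letters are not in the window of Hrnr.

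Across the listed genes, 27 had a promoter in the RefSeq table; Lce1f, Kprp, Crct1, Calml3, Evpl and Ppl did not. TGANTCA, searched on both strands, was in 10 of the 27 genes and in 6.75% of all 32851 promoter windows of that length. TATAAA was in 12 of 27 and 12.4% of all windows. CACCC, a site that KLF factors bind, was in 16 of 27 and 52.0% of all windows, and TTGCNNAA, which C/EBP factors bind, in 5 of 27 and 9.56%; the motifs were counted separately, and matches of different motifs may overlap. Of the 10 Lce1 genes with a promoter, 0 held TGANTCA, 0 held TTGCNNAA, 3 held CACCC and 2, Lce1d and Lce1m, held TATAAA. A match describes letters in a window, and its part in any difference was not tested.

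Most envelope genes differed by less than 1.5-fold between the pools, and 4 were higher in the knockout pool by more. Of the 32 genes with a probe, 31 were well above background on both arrays. At least 1.5-fold higher were 4 of the 31, namely Rptn, Sprr1b, Hrnr and Ivl, where 6.73% of all 19424 measured genes passed that size. At least 1.5-fold lower were 0 of 31, against 4.49% of all genes. All 31 were among the 9712 genes with a signal over the median, of which 4.11% were at least 1.5-fold higher and 2.44% lower. At 2-fold the counts were 2 (Rptn and Sprr1b) against 2.23% of all genes higher, and 0 against 1.44% lower.

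The members together leaned slightly toward the knockout pool. Their median difference was 0.20 log2, or 0.13 under quantile normalization, against 0.01 over all measured genes and over those above the median signal. Above 0 lay 26 of 31, where 51.8% of all genes did. Such a lean was not particular to the members. Medians were 0.25 for basal and 0.13 for suprabasal keratinocyte markers and 0.17 for genes of the envelope's ceramides. Hair follicle and adipocyte markers had medians below 0, at -0.91 and -0.37. The scanner error of a single difference was 0.20 log2 for every one of the 31, and 15 (48.4%) lay within it, against 55.9% of all measured genes. Another 10 were higher by 1 to 2 errors and 2, Flg2 and Tgm1, lower by that much. Beyond 2 errors were the same 4 as above, against 11.2% of all genes higher and 7.82% lower, with 0 members lower.

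**Figure D1:**
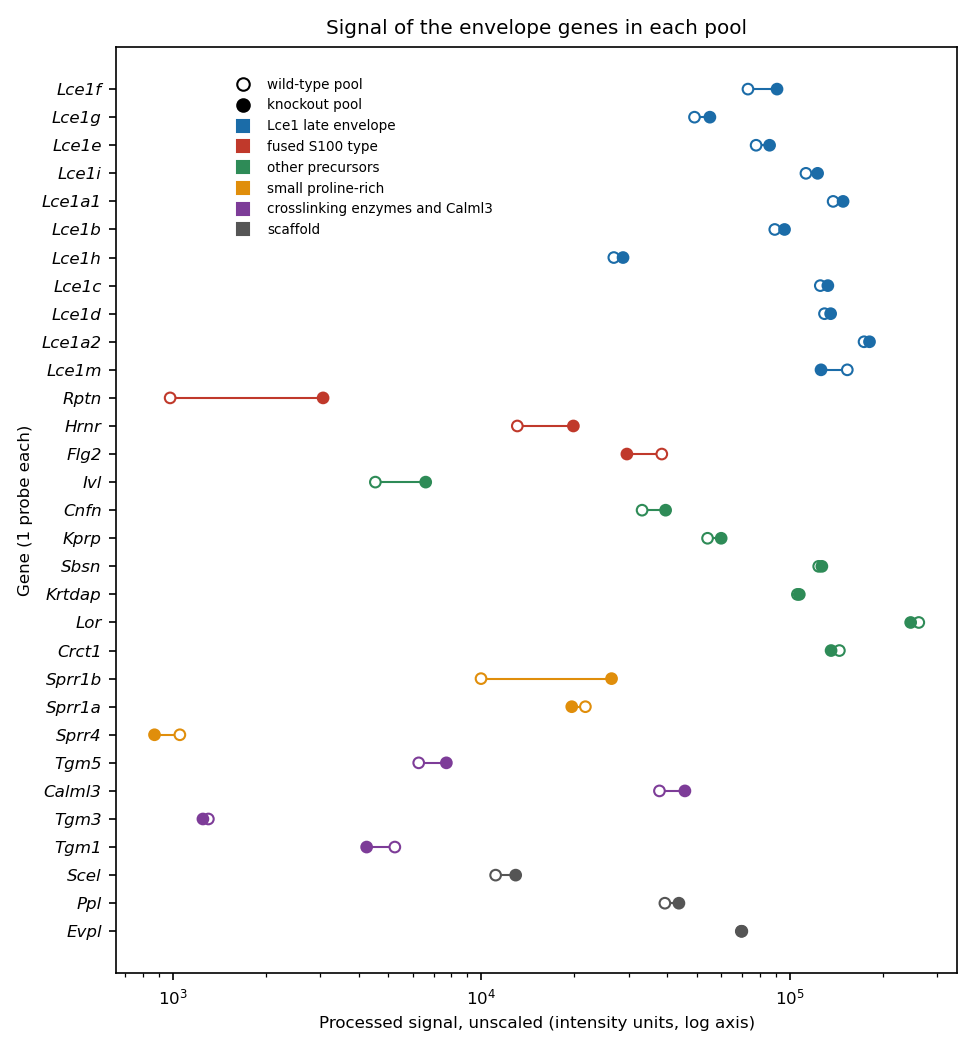
Unscaled processed signal (intensity units, log axis) of each of the 31 envelope genes in the wild-type pool (open circle) and the knockout pool (filled circle), 1 probe per gene and coloured by role. The long bars are Rptn and Sprr1b, while the symbols of Lor, Crct1, Krtdap, Sbsn and Evpl nearly coincide; levels of different probes are not comparable.

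**Figure D2:**
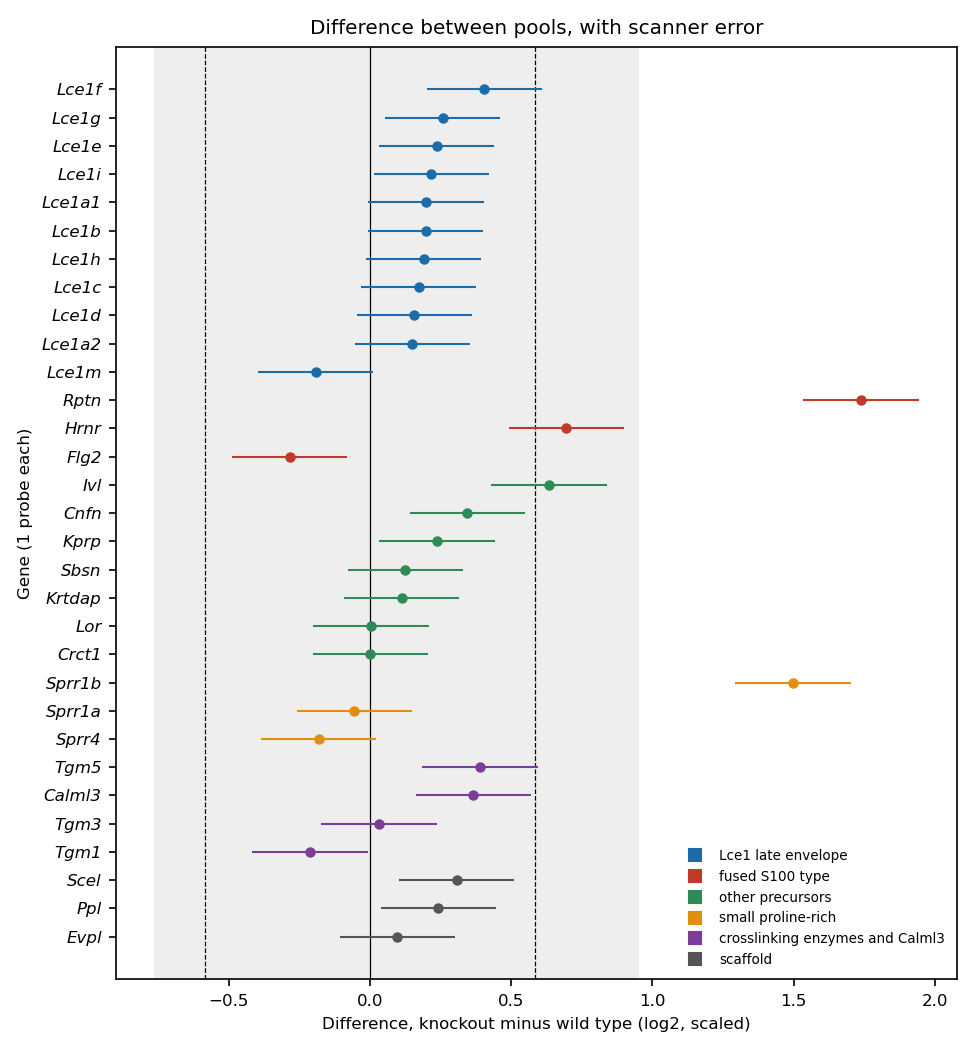
Difference between the pools (log2, scaled, knockout minus wild type) for the same genes, with bars of 1 scanner error. Dashed lines mark 1.5-fold and the grey band holds the central 95% of all measured genes, from -0.76 to 0.95; Rptn and Sprr1b lie outside it and the Lce1 genes sit in a narrow column to the right of 0 except Lce1m.

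The fused S100-type genes encode long repeat proteins of the keratohyalin granule and the envelope, and their 3 measured members ran in both directions. Rptn, repetin, a precursor that transglutaminases join to the envelope, read 980 in wild type and 3069 in knockout. Its difference of 1.74 log2 ± 0.20 (scanner error), 3.34-fold, was the largest among the members. Its probe A_52_P523146 for NM_009100 lies at mm9 chromosome 3, 93202664 to 93202723.

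Hrnr, hornerin, a filaggrin relative of the horny layer, read 13080 and 19876. That was 0.69 log2 ± 0.20, or 1.62-fold higher in the knockout pool, from probe A_55_P1963094 at chromosome 3, 93135441 to 93135500. This was its 1 probe, and it lay past the 1.5-fold size of 0.58 log2 by less than 1 scanner error. Flg2, filaggrin-2, another relative, went the other way with 38453 and 29635, a difference of -0.28 ± 0.20 that was the lowest of all members. Its probe lies at chromosome 3, 93024641 to 93024700, between Lce1m and Hrnr.

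Profilaggrin itself was near equal in the pools by each of its 3 probes. The probe at chromosome 3, 93083694 to 93083753, read 164484 in wild type and 168080 in knockout (0.12 log2). The probe at 93096241 to 93096300 read 75397 and 72625 (0.04), and the one at 93097529 to 93097588 read 171872 and 183214 (0.18). All 3 probes of this gene, the one of its group best known for skin barrier disease, lay within the scanner error of 0.20. Its neighbours Flg2, Hrnr and Rptn differed by more than that error. The scanner error is an estimate of the software, and repeat spots varied less, with a median SD of 0.041 log2. Lying within it therefore does not show that a difference is 0.

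The small proline-rich genes encode short cross-bridging proteins, and 1 of their 3 measured members was higher. Sprr1b read 9976 in wild type and 26428 in knockout, 1.5 log2 ± 0.20 or 2.82-fold, from probe A_55_P2174143 for NM_009265 at chromosome 3, 92240731 to 92240790. Its close paralog Sprr1a read 21741 and 19636, a difference of -0.06 ± 0.20 that lay within the error. Sprr4 read 1054 and 872, a difference of -0.18 ± 0.20, and Sprr3 was not measured. The paralogs Sprr1a and Sprr1b thus stood on different sides of the 1.5-fold line in the same RNA.

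Among the other precursors, involucrin was the 1 of 7 past 1.5-fold. Ivl, the early scaffold substrate of transglutaminase, read 4533 in wild type and 6601 in knockout, 0.63 log2 ± 0.20 or 1.55-fold, at chromosome 3, 92375367 to 92375426. A second probe at 92375498 to 92375557 read 2829 and 4416, a difference of 0.73. Both probes lie past the 1.5-fold size of 0.58 log2, by less than 1 scanner error.

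Loricrin and the remaining precursors differed little. Lor, the most abundant protein of the mature envelope, read 261825 and 246420, and scaling turned this into 0.0038 log2. Crct1, a small cysteine-rich protein gene of the complex, read 144753 and 136046 (0.0018). Cnfn, cornifelin, a minor envelope protein, was the highest of these at 33193 and 39567 (0.34 log2). Kprp, a proline-rich keratinocyte protein, stood at 0.24, Sbsn, suprabasin, at 0.13 and Krtdap, a secreted protein of differentiating keratinocytes, at 0.11. The 7 precursors had a median of 0.13 log2, or 0.04 under quantile normalization, and all 7 were above 0, though Lor and Crct1 lay on either side of 0 depending on the scaling.

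The Lce1 genes encode the late envelope proteins added last from within, and 10 of the 11 lay above 0. All 11 were measured, 0 passed 1.5-fold in either direction, and their median was 0.20 log2. Without Lce1m, the other 10 lay between 0.15 and 0.40 log2. Lce1f was the highest, at 73162 in wild type and 90882 in knockout (0.40 log2, 1.32-fold). Lce1a2 was the lowest of the 10, at 174015 and 181236 (0.15).

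The exception was Lce1m. It read 153556 in wild type and 126199 in knockout, and its difference of -0.19 ± 0.20 was the 1 below 0 among the Lce1 genes. Its probe, at chromosome 3, 92821829 to 92821888, lies apart from the other 10, which run from Lce1a1 at 566 kb to Lce1i at 697 kb from the Lor probe; Lce1m is at 938 kb, beside Crct1. Of the Lce1 genes that the list did not hold, Lce1j (0.22) and Lce1l (0.16) lay within the range from Lce1a2 to Lce1f. Lce1k (0.03) lay below that range, between Lce1m and Lce1a2, and the more distant Lce6a stood at -0.44.

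Probe letters were compared to see which member probes resemble each other. Of all pairs of member probes from different genes, 2 matched at 36 or more of 60 bases, namely Lce1h with Lce1i at 56 bases and Lce1i with Lce1d at 46. A run of 25 bases shared with any probe of another name was found for Lce1h and Lce1i alone. Probes were compared with probes only, so whether any Lce1 probe binds RNA of another Lce1 gene was not tested. The first 30 bases of these probes are shown because they are the most alike of any between genes of the list; capitals mark the 2 bases that differ in this stretch.
Lce1h: aagacttcaAacaaatGgtgcaggaggagc
Lce1i: aagacttcaGacaaatAgtgcaggaggagc
Lce1h read 26881 and 28795 (0.19 log2), and this Lce1i probe 32506 and 37778 (0.31). The values of this pair may not be separate measurements. The other Lce1i probe gave 112776 and 123032 (0.22). Binding of 1 transcript to both probes was not tested.

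The enzymes that join the envelope were within 1.5-fold, with both directions among them. Tgm1, the membrane-bound transglutaminase, read 5243 in wild type and 4248 in knockout (-0.21 log2). Tgm5, a transglutaminase of the upper epidermis, read 6265 and 7702 (0.39), and Tgm3, the enzyme that also serves the hair follicle, read 1304 and 1251 (0.03). Calml3, a calmodulin-like calcium sensor of keratinocytes, read 37787 and 45699 (0.37).

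The scaffold genes all lay above 0 and below 1.5-fold. Envoplakin, Evpl, read 69605 in wild type and 69893 in knockout (0.10 log2), and its partner periplakin, Ppl, 39350 and 43698 (0.24). Scel, sciellin, a precursor of the envelope, read 11125 and 12921 (0.31). Of these only Evpl lay within the scanner error of 0.20. Outside chromosome 3, the probes of members lay on chromosome 2 (Tgm3 and Tgm5), 7 (Cnfn and Sbsn), 11 (Evpl), 13 (Calml3), 14 (Tgm1 and Scel) and 16 (Ppl); the probe of Krtdap has no position in the files.

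Probes of the same gene gave similar differences. In the 6 members with 2 measured probes, the probes differed by 0.012 to 0.11 log2, with a median of 0.079, and all 6 pairs had the same sign. The Lce1b probe was printed 10 times. On the wild-type array its spots read from 81886 to 96864 and on the knockout array from 91147 to 103795, and the 9 spots usable on both gave differences from 0.13 to 0.28 with an SD of 0.049. The spread between probes was smaller than the scanner error of 0.20, and none of these repeats replaces another pool of animals.

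**Figure D3:**
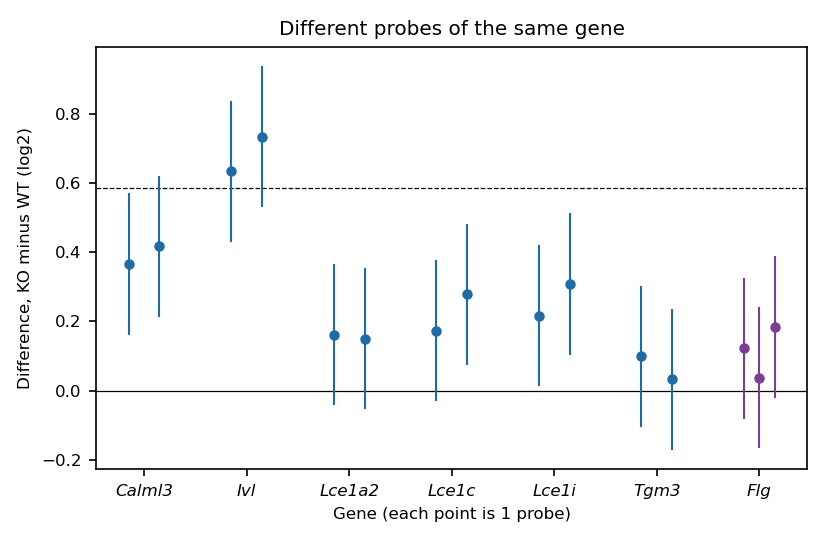
Difference between the pools (log2, scaled, knockout minus wild type) for every measured probe of the 6 genes with 2 probes, and for the 3 profilaggrin probes named by their description (purple). Bars are 1 scanner error and the dashed line marks 1.5-fold; both Ivl probes lie above the line, at 0.63 and 0.73, and no other probe does.

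Within the epidermal differentiation complex the higher members lay at 3 separate places. The 21 measured members there spanned 1319 kb, from the Lor probe to the Rptn probe, at mm9 chromosome 3, 91884206 to 93202723. Sprr1b lies at 357 kb from the Lor probe, next to the Sprr2 genes, and Sprr1a, at 404 kb, and Sprr4, at 420 kb, lie beyond it. Ivl lies at 491 kb, while Hrnr, at 1251 kb, and Rptn, at 1318 kb, close the far end, past Flg2 at 1140 kb. Between Ivl and Hrnr none of the members passed 1.5-fold.

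In the 2 families left out of the list, some genes had larger differences than any member and others did not. Of all measured genes, 6.73% passed 1.5-fold upward and 4.49% downward. Of 9 measured Sprr2 genes, 7 passed 1.5-fold upward and 0 downward, from Sprr2b at 0.11 to Sprr2i at 3.51 log2, with a median of 2.17, which was 1.57 without the filter on dim probes and 0.97 among genes over the median signal. Of 6 Lce3 genes, 3 were higher and 0 lower, from Lce3c at 0.29 to Lce3a at 3.26, with a median of 0.75, or 0.52 among genes over the median signal. The largest differences came from dim probes: Sprr2i read 50.6 and 542 and Lce3a 75.2 and 675. Sprr2a2, the brightest of the Sprr2 probes, read 124458 and 132804 (0.18 log2), within the scanner error. Lce3c, the brightest of the Lce3 probes in wild type, read 15134 and 17393 (0.29).

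**Figure D4:**
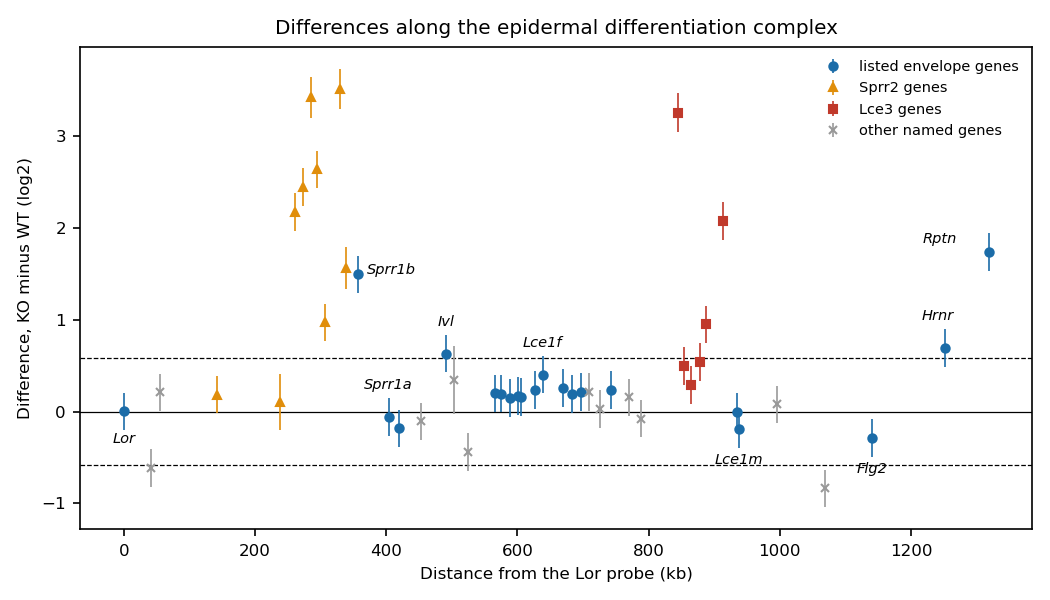
Difference between the pools (log2, scaled, knockout minus wild type) of the named and measured genes in the epidermal differentiation complex, without Adrm1 and Ywhaz, which RefSeq places on other chromosomes, against the distance of its probe from the Lor probe in kb, with bars of 1 scanner error and dashed lines at 1.5-fold. The listed genes (blue) form a flat run from 566 to 697 kb, the Lce1 genes, while Sprr1b lies at the edge of the Sprr2 genes and Rptn and Hrnr at the far end.

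Other genes of the same pathway were read from lists drawn up by function. Beside the counts of these lists, here and in the next paragraphs, stand 6.73% of all measured genes at least 1.5-fold higher and 4.49% lower. Of 16 genes that process filaggrin or shed the horny layer, 1 was at least 1.5-fold higher and 3 lower, with a median of 0.13 log2. All 4 belong to the peptidyl arginine deiminases, which convert arginine to citrulline: Padi2 read 265 and 896 (1.85 log2), whereas Padi3 read 7291 and 3706 (-0.88), Padi4 1170 and 655 (-0.75) and Padi1 1490 and 883 (-0.66). The other 12, among them the filaggrin-cleaving protease Casp14 (0.05), stayed under 1.5-fold.

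Of 18 measured keratins, corneodesmosome and keratohyalin genes, 1 was higher and 2 were lower, with a median of 0.11. Krt78, a keratin of the upper layers, read 25083 and 36593 (0.64), Tchhl1, a trichohyalin-like gene, 8814 and 3735 (-1.15) and Krt77, a keratin of sweat ducts and embryonic epidermis, 471 and 221 (-1.0).

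Lipid anchors and regulators of differentiation differed little. Of 13 genes that make and attach the ceramides of the envelope, 0 were past 1.5-fold in either direction, with a median of 0.17 and a range from Ugcg at -0.03 to Abca12 at 0.42. Of 33 transcription factors and signals of differentiation, Fos was the 1 higher, at 4054 and 7236 (0.93), and 0 were lower; Vdr, the vitamin D receptor, was the lowest at -0.48, and the median was 0.10. Of 16 other transglutaminases and calcium-binding or cystatin genes, Tgm2, the tissue transglutaminase, was the 1 higher (0.73), and Calm5 (-0.81) and Csta1 (-0.67) the 2 lower, with a median of 0.17.

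Markers of other cells in skin differed between the pools beside these genes, and their part in the members' differences was not tested. The share of all measured genes was again 6.73% at least 1.5-fold higher and 4.49% lower. Of 8 basal keratinocyte markers, 1 was higher and 0 lower (median 0.25 log2), and of 6 suprabasal markers 0 passed 1.5-fold (median 0.13). Hair follicle markers were lower in 12 of 14 and higher in 0, with a median of -0.91, and their signals summed to 378118 in wild type and 213517 in knockout. Of 9 measured neutrophil markers, 5 were higher and 1, Camp, lower, with a median of 1.0; their summed signal of 132813 and 138262 came mostly from Csf3r (125040 and 113910). S100a8 (1631 and 6160) and S100a9 (3357 and 16197) are made by stressed keratinocytes as well.

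The other markers were measured in the same way. Of 6 fibroblast markers 0 passed 1.5-fold (median 0.10). Of 6 skeletal muscle markers 2 were higher and 0 lower (median 0.42), and of 4 measured adipocyte markers 2 were lower and 0 higher (median -0.37).

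**Figure D5:**
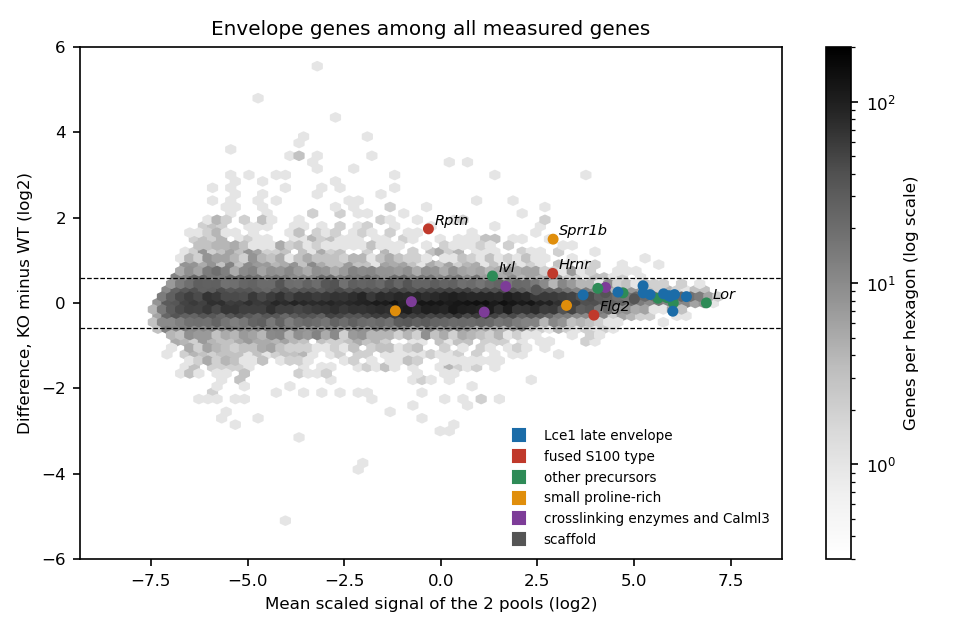
Difference between the pools (log2, knockout minus wild type) against the mean scaled signal of both pools (log2) for all 19424 measured genes (grey, darker where more genes fall, log scale) and the 31 envelope genes (coloured by role), with dashed lines at 1.5-fold. Rptn, at 1.74, and Sprr1b, at 1.5, stand above the bulk of genes, Hrnr and Ivl lie just above the line, and most members lie near 0 at the right.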

How the data were processed

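Skin RNA of 2 pools was hybridised to 1 Agilent array each, and scanned spots were quantified by Feature Extraction 11.5.1.1, per the submitters' processing notes. The deposited scanner files give the background-subtracted, detrended intensity of each spot and its error, per the file headers. The deposited value table gives a ratio for each spot, which is that intensity over 1 constant per array. From these, log2 intensity was averaged over the spots of a probe, leaving out 234 outlier spots among 43020, and the array's 75th percentile was subtracted, with Python 3.11.15. Each gene was read from its brightest probe that both arrays marked as well above background. Of 39422 probes, 32464 carry a gene name in the files.

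With 1 array per group there was no test, only a fixed size of 1.5-fold or 2-fold, and the number of arrays limits the precision. Of 378 probes with at least 8 usable repeat spots, the median SD of the difference was 0.041 log2. The steps were tested on simulated data. Members and lists were chosen with earlier results of these data known. All listed genes were named or counted; of related lists, members past 1.5-fold and the extremes were named. Alternatives were the scaling, quantile normalization, normexp (limma 3.58.1, offset 50), the probe rule, the filter, the value table and RefSeq names (GRCm38.p6, 28754 probes matched by accession). The files' positions are on mm9; exon and UTR annotation of that build was not used here.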

Additional observations from a re-analysis of the deposited data

How the results depend on the processing

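The 4 members at least 1.5-fold higher and the 0 lower were the same under all 9 alternatives: Rptn lay between 1.67 and 1.74 log2, Sprr1b between 1.47 and 1.5, Hrnr between 0.66 and 0.70 and Ivl between 0.62 and 0.68. The members' median of 0.20 log2 was 0.13 under quantile normalization and between 0.18 and 0.20 under the others. Members above 0 numbered 24 to 27, the last without the filter on dim probes, where Sprr3 enters and the genes number 32; Lor ranged from -0.09 to 0.01 and Crct1 from -0.09 to 0.02. Quantile normalization also took the median of the Lce1 genes from 0.20 to 0.13 and that of the keratin, corneodesmosome and keratohyalin list from 0.11 to 0.025. It took the median of the list of other transglutaminases and calcium-binding or cystatin genes from 0.17 to 0.098. Among all genes, the share at least 1.5-fold higher was 4.41% under normexp and 4.11% among the brighter genes, over the median signal, where the share lower was 2.18% and 2.44%; without the filter on dim probes it was 9.15% and 5.54%. No paired analysis was possible because each group has 1 array, and for the same reason no array could be left out. Genotype, mix of sexes in the pool and place on the slide cannot be told apart.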

Other observations

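Genes of the epidermal differentiation complex that belong to neither the listed envelope genes nor the Sprr2 and Lce3 families lay on both sides of 0. Between the Lor and Rptn probes 13 such names were measured by probe position, among them Adrm1 and Ywhaz, which RefSeq places on chromosomes 2 and 15. Without these, a choice made after the data were seen, 11 remained, of which 6 lay above 0 and 5 below, with a median of 0.029 log2 (-0.07 with them). Among the 11 were late envelope genes outside the list, namely Lce1j (0.22), Lce1k (0.03), Lce1l (0.16) and Lce6a (-0.44). The 11 are therefore not a set of genes without a part in the envelope. At least 1.5-fold higher were 0 of the 11 and lower 2, against 6.73% and 4.49% of all measured genes. The 2 were Crnn, cornulin, a fused S100-type relative of Rptn and Hrnr, which read 978 in wild type and 514 in knockout (-0.84 log2), and Prr9, a proline-rich gene, at 48167 and 29570 (-0.61). Both were picked after their values were seen. Crnn lies at 1069 kb from the Lor probe, between Gm4858 at 995 kb (0.08) and Flg2 at 1140 kb (-0.28).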
